A study of Rattus norvegicus with 6 samples.

Results

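The genes described here are members of the Bcl2 family and the initiator caspases of apoptosis, chosen by gene symbol: Bcl2, Bcl2l1, Bcl2l11, Mcl1, Bax, Bak1, Bid, Casp8 and Casp9. Of these 9 genes, 8 had a row under their symbol among the 32623 genes of the table, and all 8 passed the low-expression filter, which asked for an average of 0.5 FPKM or more across all samples. Mcl1 was not analysed here. FPKM scales fragment counts by transcript length and library size, so levels given in it can be compared between genes. RNA was sequenced from the myocardium of 3 sham rats and 3 rats with ischemia, all male and with the genotype label WT. In the ischemia rats the left anterior descending coronary artery was tied, and the titles of all 6 samples give 30 min. The labels for the sham rats give no ligation, and strain and age are not given in the sources used here. The part of the heart that was taken is labelled only as myocardial tissue, which holds cardiomyocytes together with endothelial cells, fibroblasts and blood cells. With whole tissue, fewer cells of a type and less RNA per cell cannot be told apart. Each sample is labelled as a separate replicate, and p-values measure the spread between these samples.

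Apoptosis through mitochondria is set by the balance within the Bcl2 family. Guardian proteins such as Bcl2, Bcl-xL (the product of Bcl2l1) and Mcl1 hold the effectors Bax and Bak in check, and BH3-only proteins such as Bim (the product of Bcl2l11) and Bid relieve that restraint, so that the outer mitochondrial membrane is opened and cytochrome c is released. Released cytochrome c assembles the apoptosome, which activates caspase-9, while death receptors at the cell surface activate caspase-8, which can cleave Bid and so join both routes. In the heart this machinery has long been studied in cardiomyocyte loss during ischemia and reperfusion, and much of its control acts on the proteins, which were not measured here.

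In ischemic myocardium the transcripts of both effectors, of the guardian Bcl2l1 and of the BH3-only gene Bid rose, while no member fell past the adjusted threshold. Bid rose 5.83-fold (95% confidence interval 2.49 to 13.7), Bcl2l1 2.85-fold (1.83 to 4.44), Bax 2.34-fold (1.66 to 3.28) and Bak1 1.94-fold (1.46 to 2.58), each with an adjusted p under 0.05 in the quasi-likelihood test of edgeR. So 4 of 8 members passed upward, against 5.18% of all 13964 tested genes. Downward 0 of 8 members passed, against 1.53% of tested genes. At an unadjusted p under 0.05 edgeR placed 4 members higher (background 18.2%) and 1 lower, Bcl2 (background 14.2%). DESeq2 called 4 higher (background 14.8%) and 1 lower, again Bcl2 (background 12.5%). Limma on log2(FPKM + 0.1) called 4 higher (background 6.09%) and 0 lower (background 1.88%). The median log2 fold change of the 8 members was 1.05, and that of all tested genes was -0.0015. Bcl2, Bcl2l11, Casp8 and Casp9 did not pass.

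**Figure D1:**
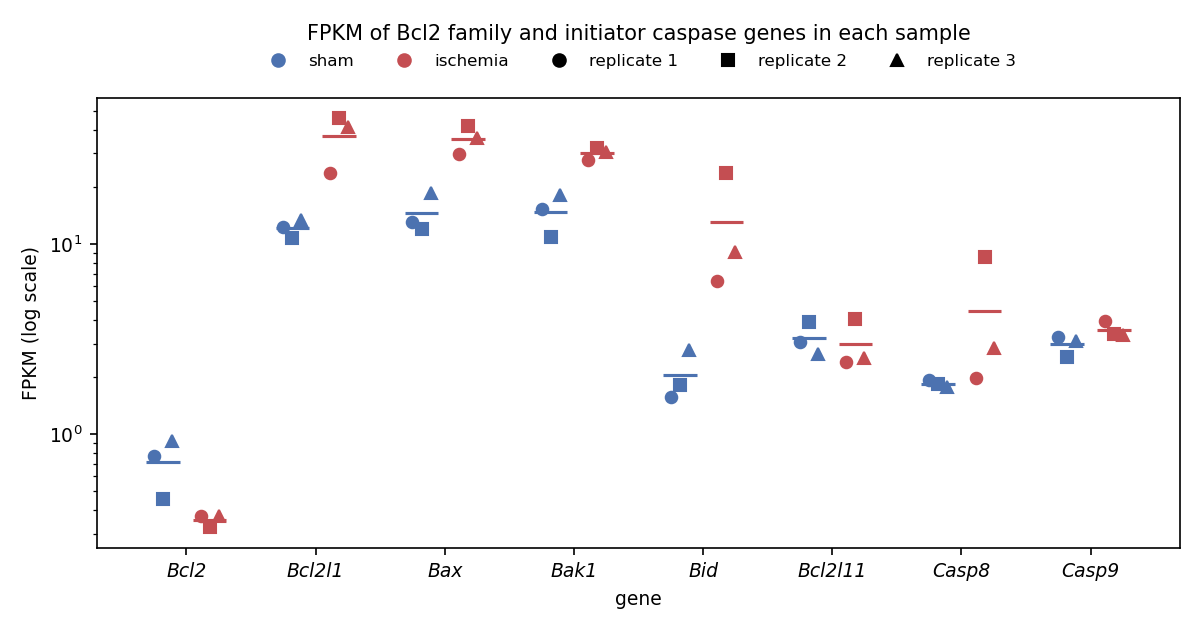
FPKM on a log axis of the 8 measured members in each of the 3 sham (blue) and 3 ischemia (red) samples, with marker shapes for replicate numbers and a bar at each group mean. The ischemia points lie clear above all sham points for Bcl2l1, Bax, Bak1 and Bid, narrowly above them for Casp9, below them for Bcl2 and among them for Bcl2l11, and Casp8 stands apart in ischemia 2, at 8.60 FPKM.

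The libraries also differed in other measured ways. Total counts ranged from 68529126 to 79591989 per sample. All 7 cardiomyocyte markers with a row had counts in every library, and their summed FPKM was 14768 to 23191 in sham and 6152 to 15342 in ischemia. All 7 log2 fold changes were negative (median -0.79), 0 passed in edgeR, and 2, Myh6 and Ryr2, were lower at an unadjusted p under 0.05 and in DESeq2. Myl2 was at 366, 2795 and 346 FPKM in sham 1 to 3 and at 1315, 594 and 1238 in ischemia 1 to 3. Its ischemia values lay below sham 2 but above sham 1 and sham 3. Markers of neutrophils and monocytes summed to 73.0 to 97.2 FPKM in sham and to 767.1, 5168 and 919.4 in ischemia 1, 2 and 3, and 9 of these 10 genes rose by edgeR. Over all 10 genes the median log2 fold change was 5.85 (range 2.50 to 8.85). Atrial markers (Myl7, Myl4, Sln and Nppa) summed to 48341 FPKM in sham 1, 214.9 in sham 2 and 39203 in sham 3, against 1279 to 9610 in ischemia, and 0 of the 4 passed in edgeR, at an unadjusted p under 0.05 or in DESeq2. Sham 1 held 26 reads of the Y-linked genes Ddx3y, Eif2s3y and Kdm5d, against 1772 to 4318 in the other libraries, although the rats are labelled male. Of lymphocyte markers the sums were 3.04 to 3.44 FPKM in sham and 5.74 to 6.49 in ischemia, of endothelial markers 86.4 to 135.5 and 95.7 to 128.2, and of fibroblast markers 288.9 to 954.1 and 159.2 to 383.7. No gene of these 3 lists passed in edgeR, while Cd3e of the lymphocyte list was higher and the collagen gene Col1a1 of the fibroblast list lower at an unadjusted p under 0.05 and in DESeq2. All 3 tested fibroblast log2 fold changes were negative (median -0.95). The part of these differences in the results for the members was not tested.

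Promoters are shown for the members that rose and have a window in RefSeq, so that the letters beside their start sites can be read with the values below. Windows of 300 bases, 250 before and 50 after an annotated start, were present for 7 of the 9 members, 10 windows in all, on assembly GRCr8, which need not be the build of the deposited table. Both strands were searched for a nuclear factor kappa B motif, an AP-1 motif (TGANTCA), a STAT motif (TTCNNNGAA), an E-box (CACGTG), a cyclic AMP response element (TGACGTCA) and a GC box (GGGCGG). Capitals mark the matches, and every line reads 5′ to 3′ on the strand of the gene. The first line is Bid on the minus strand of chr4:155808270-155808569, the next is Bak1 on the minus strand of chr20:5110925-5111224, and the last is the Bcl2l1 window with STAT matches on the minus strand of chr3:161763336-161763635.
Bid: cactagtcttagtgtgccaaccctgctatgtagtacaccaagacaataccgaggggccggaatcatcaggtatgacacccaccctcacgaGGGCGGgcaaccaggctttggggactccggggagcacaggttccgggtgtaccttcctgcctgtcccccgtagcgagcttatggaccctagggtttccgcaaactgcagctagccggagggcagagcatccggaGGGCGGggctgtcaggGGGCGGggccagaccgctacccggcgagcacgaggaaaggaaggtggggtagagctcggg
Bak1: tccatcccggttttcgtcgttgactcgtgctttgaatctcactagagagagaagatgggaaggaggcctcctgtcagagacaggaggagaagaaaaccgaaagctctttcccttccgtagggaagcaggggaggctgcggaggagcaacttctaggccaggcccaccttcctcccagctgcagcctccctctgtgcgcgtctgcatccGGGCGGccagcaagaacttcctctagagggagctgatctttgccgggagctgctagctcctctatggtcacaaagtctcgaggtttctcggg
Bcl2l1: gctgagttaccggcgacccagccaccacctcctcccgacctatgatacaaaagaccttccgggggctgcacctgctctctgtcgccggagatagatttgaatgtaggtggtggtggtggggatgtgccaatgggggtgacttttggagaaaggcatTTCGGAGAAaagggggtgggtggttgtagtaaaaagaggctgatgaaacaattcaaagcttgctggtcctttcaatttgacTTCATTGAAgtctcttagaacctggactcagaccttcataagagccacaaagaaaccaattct
The Bid window held 3 GC boxes, which begin at -160, -26 and -10 from the start, and the Bak1 window held 1, at -42. GC boxes were present in 33.1% of all 33469 promoter windows. Among members that did not pass, the Casp9 window held 3 GC boxes and the Bcl2l11 window 2, while the Bcl2 window held no match. The Bcl2l1 window held 2 matches to the STAT motif, at -94 and -13, and 8.87% of all windows held at least 1. RefSeq gave Bcl2l1 4 starts. A second overlaps the printed one and holds the same 2 matches, another held a GC box, and the remaining window held no match. No window of Bid, Bak1 or Bcl2l1 matched the nuclear factor kappa B, AP-1, E-box or cyclic AMP motifs, which were present in 0.362%, 7.33%, 6.42% and 1.83% of all windows. A match is a description of the letters, and the deposited counts do not show which start was used.

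The guardians are described first. Bcl2l1, which encodes Bcl-xL (chromosome 3, 148259596 to 148313810, minus strand, as the table lists it), had FPKM values of 12.4, 10.8 and 13.3 in sham 1 to 3 and of 23.7, 46.0 and 41.2 in ischemia 1 to 3. Every ischemia sample lay above every sham sample, and ischemia 1 was the lowest of its group. The mean was 12.2 ± 1.27 FPKM in sham and 36.9 ± 11.7 in ischemia (SD, n = 3 each), with an edgeR log2 fold change of 1.51 ± 0.26 (SE, adjusted p = 0.0364). In sham its mean level exceeded that of 66.8% of tested genes, and in ischemia that of 85.5%.

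Bcl2, the founding guardian (chromosome 13, 26605426 to 26769374, minus strand), was at 0.767, 0.457 and 0.923 FPKM in the sham samples and at 0.373, 0.323 and 0.371 in the ischemia samples. All ischemia samples lay below all sham samples, with sham 2 nearest to them. These levels rest on few reads, 77 to 139 counts per sham library and 51 to 64 per ischemia library, and the exact Poisson interval of sham 2 (0.361 to 0.571 FPKM, counting error only) overlaps that of ischemia 1 (0.287 to 0.477). The mean was 0.716 ± 0.237 FPKM in sham and 0.356 ± 0.028 in ischemia (SD, n = 3 each). The log2 fold change of -1.05 ± 0.37 (SE) did not pass in edgeR (unadjusted p = 0.0288, adjusted p = 0.118), whereas DESeq2 gave -1.07 with an adjusted p of 0.0317. Bcl2 was the lowest member in both groups, above 6.87% of tested genes in sham and above 2.26% in ischemia.

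Transcripts of both effector genes, whose proteins open the outer mitochondrial membrane, rose. Bax (chromosome 1, 101451802 to 101457207, minus strand) had 13.1, 12.0 and 18.5 FPKM in the sham samples and 29.8, 41.9 and 36.0 in the ischemia samples. The groups did not overlap, and the highest sham value belonged to sham 3. Means were 14.5 ± 3.49 and 35.9 ± 6.05 FPKM (SD, n = 3 each), and the log2 fold change was 1.22 ± 0.20 (SE, adjusted p = 0.0351, edgeR).

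Bak1 (chromosome 20, 5609625 to 5618260, minus strand) had 15.4, 10.9 and 18.1 FPKM in sham and 27.8, 32.2 and 30.4 in ischemia. The ischemia samples lay close together and above the sham samples, among which sham 2 was the lowest. Means were 14.8 ± 3.62 and 30.1 ± 2.23 FPKM (SD, n = 3 each), with a log2 fold change of 0.96 ± 0.17 (SE, adjusted p = 0.0372, edgeR). Of all pairs of members, Bax and Bak1 had the most similar course over the 6 samples, with a root-mean-square difference of 0.184 between their centred log2(CPM + 0.5) values, where CPM is the count scaled to library size. Bcl2l1 and Bax gave 0.238.

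The BH3-only genes differed from each other. Bid, whose protein is cleaved by caspase-8 (chromosome 4, 153442218 to 153465203, minus strand), had 1.58, 1.81 and 2.78 FPKM in sham and 6.40, 23.6 and 9.13 in ischemia. The ischemia samples were all above sham samples, and ischemia 2 was far above ischemia 1 and 3. Means were 2.06 ± 0.638 and 13.03 ± 9.23 FPKM (SD, n = 3 each), and the log2 fold change was 2.54 ± 0.51 (SE, adjusted p = 0.0442, edgeR). Among tested genes 3.24% had a larger log2 fold change. Bid was the only member past the stricter criterion of a log2 fold change above 2 with an unadjusted p under 0.01, which 3.31% of tested genes met, and 0 members had the reverse, a log2 fold change below -2, against 1.34%. Ischemia 2 was also the library with the highest sum of neutrophil and monocyte markers (5168 FPKM). Without it the log2 fold change of Bid was 1.89 (adjusted p = 0.0474, edgeR). The part of those cells in the level of Bid was not tested.

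Bcl2l11, which encodes Bim (chromosome 3, 120726906 to 120764192, plus strand), had 3.07, 3.92 and 2.64 FPKM in sham and 2.38, 4.04 and 2.51 in ischemia. The groups overlapped, with sham 2 and ischemia 2 the highest of their groups. The log2 fold change was -0.24 with a 95% confidence interval of -0.99 to 0.51 (adjusted p = 0.605, edgeR), an interval that includes changes of either sign, and the value without sham 2 was 0.055.

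The initiator caspases did not pass the threshold. Casp8, the initiator at death receptors (chromosome 9, 65614142 to 65662106, plus strand), had 1.94, 1.83 and 1.76 FPKM in sham and 1.96, 8.60 and 2.85 in ischemia. Ischemia 1 was level with the sham samples and ischemia 2 alone was several times higher. The sham mean of 1.84 ± 0.0898 FPKM was narrow beside the ischemia mean of 4.47 ± 3.60 (SD, n = 3 each). The log2 fold change was 1.14 (95% confidence interval -0.16 to 2.43, adjusted p = 0.192, edgeR), and without ischemia 2, the library with the most neutrophil and monocyte signal, it was 0.34.

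Casp9, the initiator at the apoptosome (chromosome 5, 160355833 to 160373778, plus strand), had 3.24, 2.55 and 3.11 FPKM in sham and 3.95, 3.36 and 3.33 in ischemia. The lowest ischemia value was just above the highest sham value. Means were 2.97 ± 0.363 and 3.55 ± 0.348 FPKM (SD, n = 3 each), with a log2 fold change of 0.18 (95% confidence interval -0.30 to 0.66, adjusted p = 0.557, edgeR). This interval includes small changes in either direction.

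**Figure D2:**
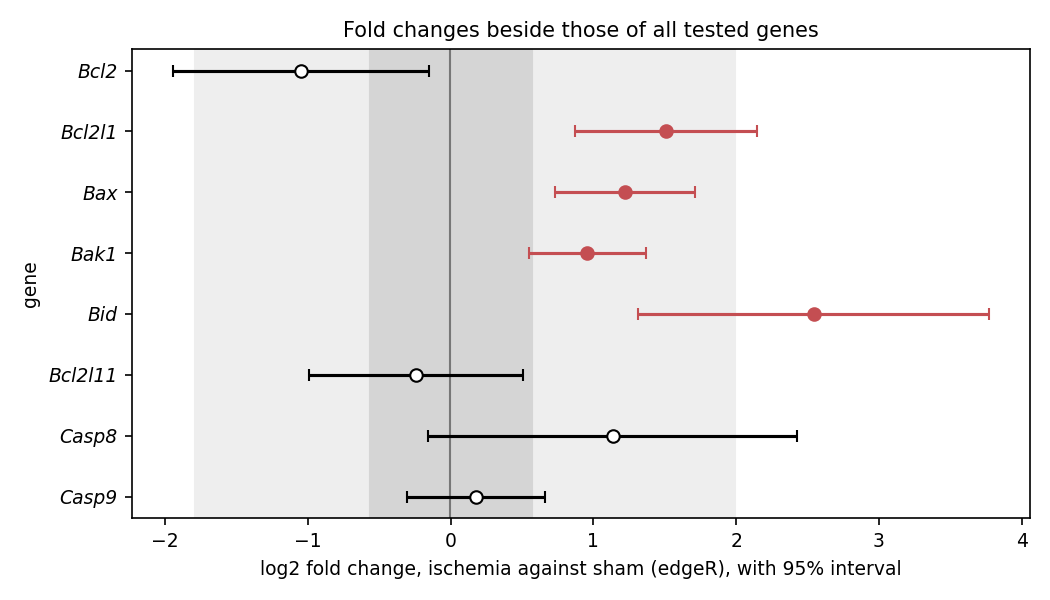
The edgeR log2 fold change of each member, ischemia against sham, with its 95% confidence interval, beside the spread of all 13964 tested genes, for which the dark band spans the 25th to 75th percentile (-0.56 to 0.57) and the light band the 5th to 95th, with a line at their median. Filled points passed an adjusted p of 0.05, namely Bcl2l1, Bax, Bak1 and Bid.

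In FPKM, 6 members had all ischemia samples above all sham samples, against 23.6% of tested genes, and 1 member, Bcl2, had all of them below, against 15% of tested genes. For single members an exact two-sided permutation test of FPKM gave p = 0.1 for these 7, the smallest value that 3 samples against 3 allow, and p = 0.6 for Bcl2l11. In CPM scaled by the trimmed mean of M-values, 4 members lay above (background 22%), 1 below (19.1%) and 3 overlapped, since Casp8 and Casp9 joined Bcl2l11. The separation of the 2 initiator caspases therefore held in FPKM and not in the scaled CPM.

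Levels of the members fell into tiers that shifted with ischemia. In sham the mean FPKM order was Bak1, Bax and Bcl2l1, whose ranges overlapped, then Bcl2l11, Casp9, Bid and Casp8, each overlapping its neighbour, and last Bcl2. In ischemia the first tier was Bcl2l1, Bax and Bak1, again with overlapping neighbours, followed by Bid, Casp8, Casp9 and Bcl2l11 and then Bcl2. Bid moved from above 24.2% of tested genes to above 66.0%, Bax from 71.0% to 85.1%, and Bak1 from 71.4% to 82.6%. Casp9 stayed near its place, at 31.7% and 33.9%, as did Bcl2l11, at 33.5% and 30.3%, and Casp8 was at 22.0% and 39.2%.

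Ratios within a sample were taken as a description, without a test. Bax to Bcl2, a pairing often quoted as an effector to guardian balance, was 17.1, 26.2 and 20.1 in sham and 79.9, 129.6 and 97.1 in ischemia. All ischemia ratios were higher, with Bcl2 on few reads in the denominator. Bax to Bcl2l1, a guardian more abundant than Bcl2, was 1.06, 1.11 and 1.39 in sham and 1.26, 0.911 and 0.874 in ischemia. These values overlapped. Bak1 to Bcl2l1 was 1.25, 1.01 and 1.36 in sham and 1.17, 0.701 and 0.739 in ischemia, again with overlap, since ischemia 1 lay among the sham samples. The sum of Bax and Bak1 over the sum of Bcl2 and Bcl2l1 was 2.17, 2.03 and 2.57 in sham and 2.40, 1.60 and 1.60 in ischemia, also overlapping. The guardian sum leaves out Mcl1, which was not analysed, and Bcl2l2 and Bcl2a1, which are described below. Bcl2l2 averaged 24.0 FPKM in sham and 22.2 in ischemia, and Bcl2a1 averaged 3.94 and 63.2. This ratio is therefore not one over all guardians.

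Other ratios separated some pairs and not others. Bcl2l1 to Bcl2, the ratio within the guardians, was 16.1, 23.7 and 14.5 in sham and 63.5, 142.2 and 111.1 in ischemia. Bid to Bcl2l11, the ratio within the BH3-only genes, was 0.514, 0.463 and 1.05 in sham and 2.68, 5.84 and 3.63 in ischemia. For both, no ischemia value reached down to sham. Bak1 to Bax ranged from 0.911 to 1.18 in sham and from 0.769 to 0.932 in ischemia, and the groups overlapped. Casp8 to Casp9 was 0.599, 0.716 and 0.566 in sham and 0.498, 2.56 and 0.856 in ischemia, where ischemia 2 alone had more Casp8 than Casp9.

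**Figure D3:**
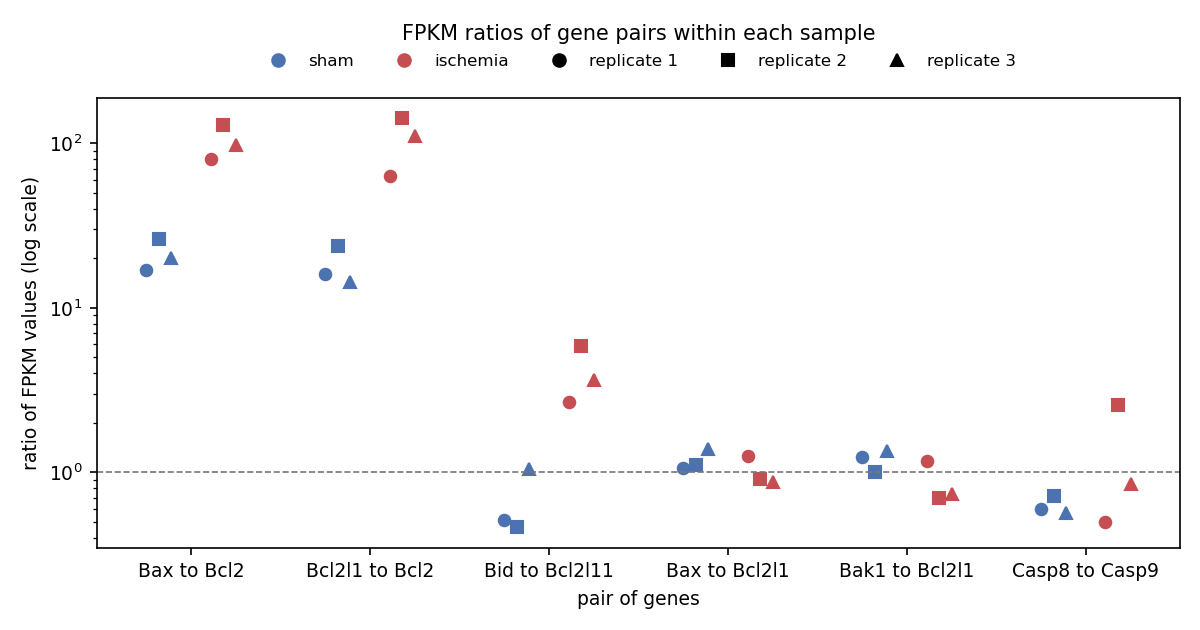
FPKM ratios between members within each sample, on a log axis, with sham samples in blue, ischemia samples in red and a dashed line at equal levels. Bax to Bcl2, Bcl2l1 to Bcl2 and Bid to Bcl2l11 separate the groups, whereas the ratios of Bax and Bak1 to Bcl2l1 do not.

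The calls depended on the set of samples more than the fold changes did. When each library was left out in turn, the log2 fold change ranged from 1.37 to 1.73 for Bcl2l1, from 1.12 to 1.36 for Bax, from 0.86 to 1.07 for Bak1 and from 1.89 to 2.84 for Bid. None of the 4 stayed past the adjusted threshold of edgeR without sham 1, sham 2, sham 3 or ischemia 3, fits in which 0 of all 13964 tested genes passed, while 3020 to 3809 had an unadjusted p under 0.05. Without ischemia 2 only Bid passed among the members (background 3.31% higher and 0.781% lower), and Bax (adjusted p = 0.0519), Bak1 (0.0543) and Bcl2l1 (0.0571) fell just short in edgeR. Without ischemia 1 all 4 passed (adjusted p from 0.0123 to 0.0287, edgeR), against 10.7% of tested genes higher and 7.98% lower. With counts scaled to library totals alone, Bak1 (adjusted p = 0.0562) and Bid (0.0503) also fell short in edgeR. Without sham 1, the library with few Y-linked reads, the log2 fold changes were 1.48 for Bcl2l1, 1.12 for Bax, 0.95 for Bak1 and 2.35 for Bid. Without sham 1 and sham 3, the sham libraries with high atrial markers, they were 1.47, 1.27, 1.16 and 2.50 against sham 2 alone (adjusted p = 0.394 for each, edgeR), where the lone sham sample is assumed to vary like the ischemia group.

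**Figure D4:**
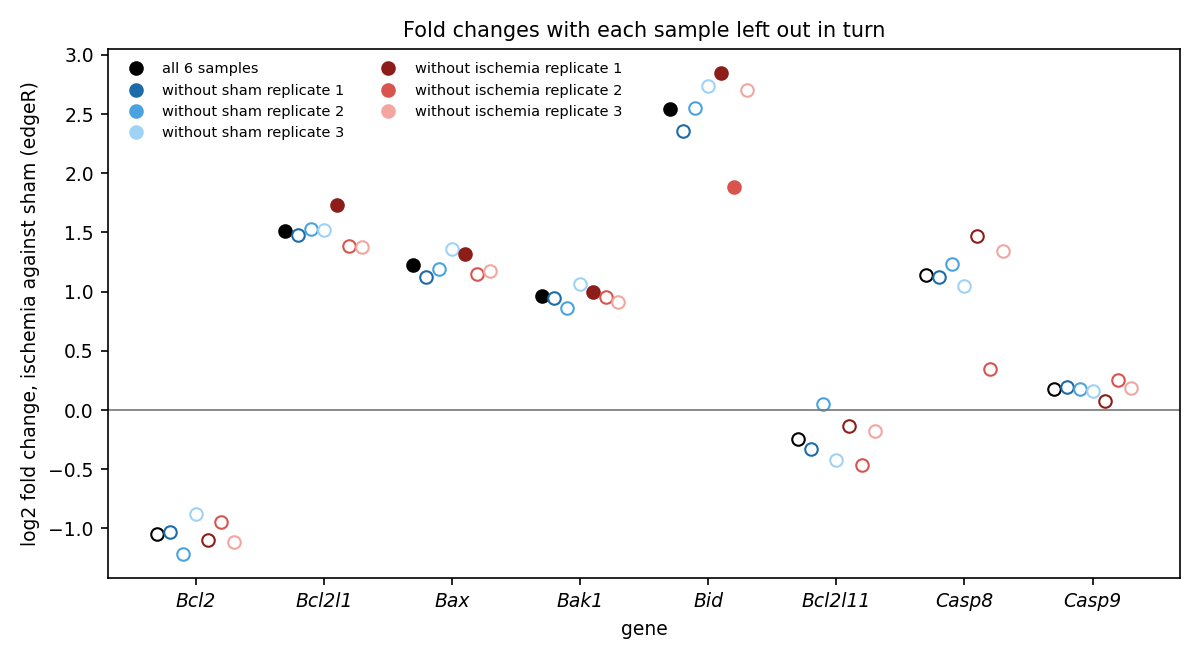
Log2 fold change of each member in edgeR with all 6 samples and with each library left out in turn, filled where the adjusted p was under 0.05. The points of Bcl2l1, Bax and Bak1 stay close together, those of Bid reach down to 1.89 and those of Casp8 down to 0.34 without ischemia 2.

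The wider machinery around the members was described through 9 lists of 52 genes. Of these, 49 had a row and 44 were tested, 2 rose (background 5.18%), 1 fell (background 1.53%) and 41 did not pass in edgeR. At an unadjusted p under 0.05 the fit placed 6 higher (background 18.2%) and 6 lower (background 14.2%), and DESeq2 called 5 higher (background 14.8%) and 5 lower (background 12.5%). As these shares lie near the background, the counts are no result about the lists. The median log2 fold change was 0.15, and 26 of the 44 were positive, against 49.9% of all tested genes. The genes that rose were Bcl2a1 and Tnfrsf1a, and the gene that fell was Fbxw7, and all 3 lost their calls without sham 1, sham 2, sham 3 or ischemia 3, the fits in which no gene passed. Fbxw7 also lost its call without ischemia 2 (adjusted p = 0.0690, edgeR).

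Among further guardians, 1 of 2 tested genes rose (background 5.18%), a list too short to describe by its count. Bcl2a1, a guardian known chiefly from blood cells, had 3.60, 3.43 and 4.79 FPKM in sham and 17.4, 137.0 and 35.3 in ischemia. Its ischemia values were all higher, and ischemia 2 was again the highest. The log2 fold change was 3.87 ± 0.76 (SE, adjusted p = 0.0429, edgeR), and without ischemia 2 it was 2.72 (adjusted p = 0.0322). Bcl2l2, the guardian Bcl-w, was at 31.1, 13.3 and 27.5 FPKM in sham and 24.3, 20.7 and 21.6 in ischemia, which overlapped (log2 fold change -0.15, adjusted p = 0.711, edgeR).

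Of the further BH3-only and effector genes, 0 of 5 tested passed in edgeR, 1 had an unadjusted p under 0.05 and 1 was called by DESeq2, Pmaip1 in both cases. Pmaip1, which encodes Noxa, a BH3-only protein that binds Mcl1, had 1.85, 0.586 and 0.997 FPKM in sham and 1.45, 17.7 and 3.10 in ischemia. Ischemia 1 lay within the sham range and ischemia 2 far above it (log2 fold change 2.58, adjusted p = 0.122, edgeR, and 1.0 without ischemia 2). Bik had a log2 fold change of 0.55 (0.25 to 1.08 with single libraries left out), Bok -0.23 (-0.71 to -0.016) and Bmf, the lowest of the list, -1.15 (-1.74 to -0.83). Without ischemia 1, Bmf (adjusted p = 0.0394), Pmaip1 (0.0457), Birc3 (0.0410) and Parp1 (0.0280) passed in edgeR. Of the BNIP and related Bcl2-like genes, 0 of 4 tested passed in edgeR, at an unadjusted p under 0.05 or in DESeq2. Bnip3, a mitochondrial receptor for mitophagy, had a log2 fold change of 0.25, Bnip3l 0.18, Bcl2l12 0.10 and Bcl2l13 -0.30.

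Of the further caspases 0 of 7 tested passed in edgeR, with Casp2 alone under an unadjusted p of 0.05 and alone called by DESeq2. Casp1, the inflammatory caspase, showed a single high value, at 15.5 FPKM in ischemia 2 against 3.39 to 5.23 in the other 5 samples (log2 fold change 0.88, and 0.16 without ischemia 2). Casp2 was at 5.90 to 8.44 FPKM in sham and 5.13 to 5.56 in ischemia, without overlap (log2 fold change -0.51, adjusted p = 0.105, edgeR). Casp12 had a log2 fold change of -1.03 with overlapping groups, and of -1.99 without ischemia 2.

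For the apoptosome and the proteins released from mitochondria, 0 of 6 passed in edgeR, 2 were lower at an unadjusted p under 0.05, and DESeq2 and limma on log2(FPKM + 0.1) each called 1 lower, Cycs. Cycs, the gene of cytochrome c and a carrier of electrons in respiration, had 519.4, 531.5 and 469.8 FPKM in sham and 314.2, 305.3 and 271.6 in ischemia. The groups did not overlap, and the log2 fold change was -0.87 ± 0.22 (SE, adjusted p = 0.0588, and 0.0402 among genes with a mean FPKM of 5 or more, edgeR). Apaf1, the scaffold of the apoptosome, had a log2 fold change of 0.57 (0.055 without ischemia 2), Htra2 0.34 and Endog, a mitochondrial nuclease, -0.87. Of the inhibitors of apoptosis 0 of 5 passed in edgeR, 1 was higher at an unadjusted p under 0.05 and DESeq2 called 1, Birc3 in both cases. Birc3 had 1.59, 2.63 and 1.66 FPKM in sham and 4.49, 22.2 and 5.61 in ischemia, without overlap and highest in ischemia 2 (log2 fold change 2.27, adjusted p = 0.0819, edgeR, and 1.28 without ischemia 2). Xiap, which binds caspases directly, had a log2 fold change of 0.80 (0.11 without ischemia 2), Birc6 -0.19 and Birc5 -0.23.

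In the death receptor pathway 1 of 9 tested genes rose in edgeR (background 5.18%), and 8 of 9 log2 fold changes were positive, against 49.9% of all tested genes. At an unadjusted p under 0.05 edgeR placed 3 of the 9 higher (background 18.2%) and 1 lower (background 14.2%), and DESeq2 called 2 higher, Tnfrsf1a and Tradd (background 14.8%), and 1 lower, Tnfsf10 (background 12.5%). Tnfrsf1a, the main receptor for tumour necrosis factor, had 23.5, 25.2 and 32.5 FPKM in sham and 96.7, 111.5 and 73.4 in ischemia. All ischemia samples were well above sham, and here ischemia 1 was not the lowest (log2 fold change 1.70 ± 0.22, SE, adjusted p = 0.0272, edgeR). Tnf, its ligand, had a log2 fold change of 1.01 with overlapping groups (0.62 to 1.64 with single libraries left out). Fas, another death receptor, had one of 0.12. Tnfsf10, which encodes the death ligand TRAIL, was at 9.43 to 13.5 FPKM in sham and 1.11 to 4.86 in ischemia, without overlap (log2 fold change -1.95, adjusted p = 0.0809 in edgeR and 0.0051 in DESeq2). It was the only negative value of the list.

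Of the execution substrates 0 of 3 passed in edgeR, and Parp1 alone was lower at an unadjusted p under 0.05 and in DESeq2. Parp1, a DNA repair enzyme cut by executioner caspases, had 81.5, 41.4 and 69.9 FPKM in sham and 35.7, 19.2 and 23.7 in ischemia (log2 fold change -1.34, adjusted p = 0.0561, and 0.0438 among genes with a mean FPKM of 5 or more, edgeR). Dffb, the caspase-activated nuclease, had a log2 fold change of 0.03 and its inhibitor Dffa one of -0.25. Among regulators of Mcl1 protein turnover 1 of 3 fell (background 1.53%). Fbxw7, the substrate receptor of a ubiquitin ligase for Mcl1 and other proteins, had 7.96, 4.95 and 4.95 FPKM in sham and 2.85, 3.23 and 1.94 in ischemia, without overlap (log2 fold change -1.25 ± 0.27, SE, adjusted p = 0.0485, edgeR). This call lay at the threshold and was lost with total-count scaling (adjusted p = 0.0757, edgeR) and without the expression filter (0.0614), with robust dispersion (0.0511) and in limma with either pseudocount (0.0698 and 0.0748). Huwe1, another ligase for Mcl1, had a log2 fold change of -0.11 and Usp9x, a deubiquitinase, one of 0.03.

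**Figure D5:**
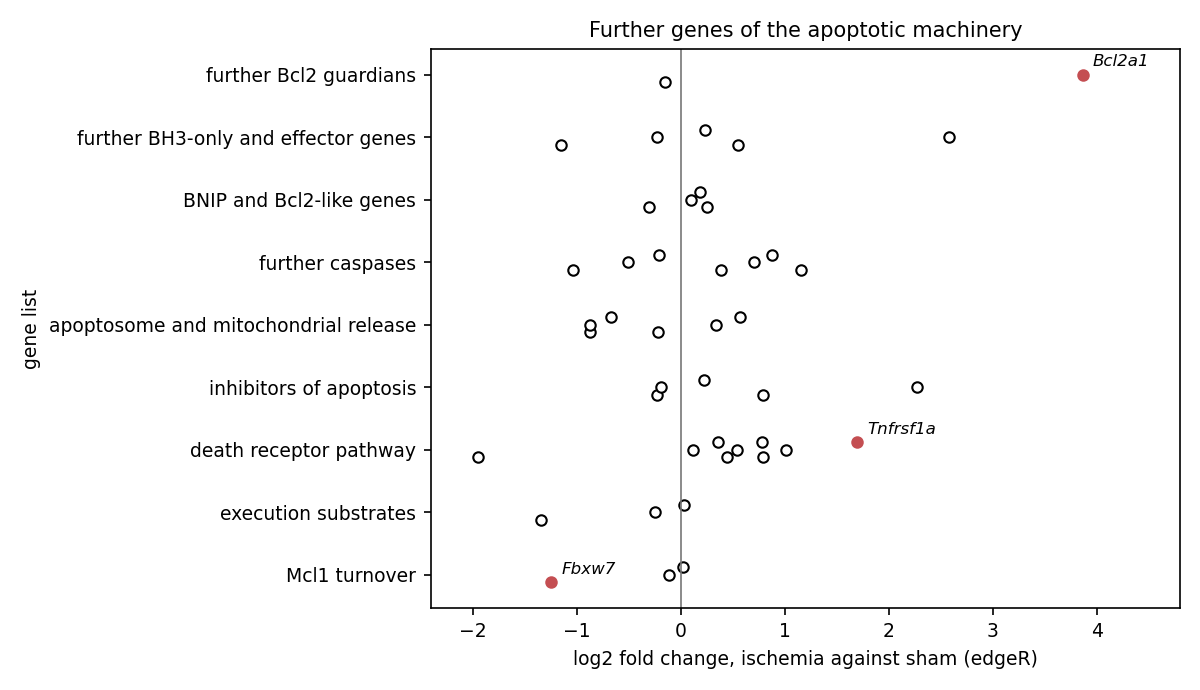
Log2 fold changes in edgeR of the 44 tested genes of the wider apoptotic machinery, grouped in 9 lists (vertical axis), with genes past an adjusted p of 0.05 filled and named. Bcl2a1 (3.87) and Tnfrsf1a (1.70) lie to the right and Fbxw7 (-1.25) to the left, and the other 41 points are open.

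A broader set, chosen after values had been seen, comprised the genes with an apoptosis pathway annotation in the deposited table. Leaving out the members, 118 of them were tested, 9 rose (background 5.18%) and 0 fell (background 1.53%) by edgeR, with a median log2 fold change of 0.36. At an unadjusted p under 0.05 the fit placed 33 of these higher (background 18.2%) and 14 lower (background 14.2%).

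For each member, the 2 other genes with the most similar course over the 6 samples were found from centred log2 CPM, with the root-mean-square difference as the measure and 12163 genes compared. Nearest to Bid were Vav1 (0.105) and Litaf (0.124), and nearest to Casp8 were Bach1 (0.0517) and Slfn2 (0.0890). Bax lay nearest to Polr1d (0.0548) and Htatip2 (0.0676), Bak1 to Plod3 (0.0531) and Rpl4 (0.0548), and Bcl2l1 to Sptlc2 (0.0816) and Yars1 (0.0830). For the members that did not pass, the nearest were Tnk2 (0.0746) and Heph (0.0758) for Bcl2, Dnmt3a (0.0819) and Ugp2 (0.0875) for Bcl2l11, and Psmg3 (0.0342) and Dnajb12 (0.0422) for Casp9. With 6 samples that share 1 contrast, such likeness is a description only.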

How the data were processed

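Total RNA of rat myocardium from 3 sham and 3 ischemia rats was analysed, grouped by the sample labels. The table deposited by the authors held raw counts per gene, whole numbers and not normalized, and FPKM values that the authors computed, in which a gene with 0 counts is set to 0.0001. The submitters' processing notes name STAR and HTSeq, without versions, and the kit was stranded. The genome build and the counting settings are not given in the sources used here, so reads shared by overlapping genes are uncertain. Among 9998 genes with at least 200 counts in every sample, 100% had count to FPKM ratios that, once a constant for each gene (its length) was removed, lay within 1% of a single factor per sample.

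The filter kept 13964 genes whose FPKM averaged 0.5 or more, which were tested by the quasi-likelihood F test of edgeR on counts scaled by the trimmed mean of M-values, two-sided and without covariates, with Benjamini-Hochberg adjustment over all tested genes and a threshold of 0.05. The standard error was taken from the F statistic, and intervals are 95% intervals. Total counts of 68529126 to 79591989 per sample make 3 counts equal to 0.0377 to 0.0438 CPM, a floor that covers counting error alone. Alternatives were DESeq2, limma on log2(FPKM + 0.1) and log2(FPKM + 1), other scalings and filters, robust dispersion, a replicate block and leaving out libraries.

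The members and lists were chosen with earlier results of these data known. The genes named were all members, each list gene past the threshold, the 2 highest and the 2 lowest log2 fold changes of each list, and the 2 genes most like each member. Placeholder symbols were passed over. Tradd, Myh6, Ryr2, Myl2, Cd3e and Col1a1 fall outside this rule and were chosen after their values were seen. The result of 1 gene that the rule names is not reported here. Bbc3, Hrk and Tnfrsf10b of the lists were not analysed here, nor was Mcl1, so its planned ratio to Bcl2 could not be formed. Promoter windows are from RefSeq, and none was used for Bax and Casp8. Versions were Python 3.11.15, matplotlib 3.10.9, R 4.3.3, DESeq2 1.42.0, edgeR 4.0.16 and limma 3.58.1.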

Additional observations from a re-analysis of the deposited data

How the results depend on the processing

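Of the 4 members that rose, all 4 passed with DESeq2, limma at both pseudocounts, median-ratio and upper-quartile scaling, other filters, robust dispersion and without the mitochondrial genome. With total-count scaling 2 passed (Bak1 adjusted p = 0.0562, Bid 0.0503, edgeR). DESeq2 called 1 member lower, Bcl2, and 2071 of all tested genes higher and 1742 lower. Of all tested genes, 86 were lower with total-count scaling and 93 without a filter. With a mean FPKM of at least 5, where 4 members were tested and passed, their median log2 fold change was 1.32. Leaving out each replicate gave 0 to 4 members higher, 0 to 1490 genes higher, 0 to 1115 lower and a member median of 0.65 to 1.16. No scaling moved the median of all tested genes by over 0.1. The cause of these shifts was not tested.

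When edgeR took a replicate block into the fit, 0 members were higher (adjusted p from 0.1006 to 0.1079), as were 0 genes in all, higher or lower, while 3349 had an unadjusted p under 0.05. Same-numbered samples did not deviate together (mean correlation -0.115, from -0.196 to -0.056, and 0.0553 for different numbers). With 3 samples per group, each centred on its group mean, these correlations constrain one another. They cannot decide whether the numbers pair the rats. Without sham 1 and 3 together, 0 genes in all and 0 members passed, and 1707 genes had an unadjusted p under 0.05.

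Among list genes and members some signs turned: Dffb -0.0024 and Usp9x -0.018 with upper-quartile scaling, Usp9x -0.023 at the stricter filter and Fas -0.015 with the block. Leaving out single libraries also turned some signs, with ranges of -0.46 to 0.055 for Bcl2l11, -0.38 to 0.040 for Bcl2l2, -0.060 to 0.20 for Bcl2l12, -0.40 to 0.44 for Bnip3l, -0.49 to 0.17 for Birc5, -0.38 to 0.036 for Birc6, -0.42 to 0.37 for Fas, -0.43 to 0.062 for Dffa, -0.072 to 0.11 for Dffb and -0.22 to 0.19 for Usp9x. Without sham 1 and 3 together, Bcl2l2 was 0.44, Bik -0.15, Casp12 0.082, Htra2 -0.061, Birc6 0.22 and Dffb -0.059.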
